A study of Saccharomyces cerevisiae with 5 samples.

Results

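Chromatin rings of 4 replication origins of budding yeast (Saccharomyces cerevisiae) were compared between isw2Δ and ies6Δ cells by the shape of their methylation profiles. The libraries were taken by genotype and were 4 of the 5 analysed here, 2 of isw2Δ and 2 of ies6Δ, beside 1 wildtype library. All strains were MATa ura3Δ0 leu2Δ0 his3Δ1 met15Δ0 bar1::kanMX4. Each carried recombination sites and a LexA array around 1 origin, and LEXA-TAP under pTEF2 with the R recombinase (RecR) under pGAL1-10 at a LEU2-marked site on chromosome I. The isw2Δ cells carried isw2Δ::ura3 in addition, and the ies6Δ cells ies6Δ::his. The cells were arrested in G1 with α-factor. A genotype had 1 strain for each origin, and the 4 strains of a genotype were pooled before purification, so that an origin in a mutant rests on a single strain. The study calls the 2 libraries of a genotype biological replicates, while the labels do not say that they came from separate cultures, so that p-values measure the spread between these libraries.

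Isw2 is the ATPase of the ISW2 remodeler, which slides nucleosomes toward nucleosome-free regions (NFRs), while Ies6 is a subunit that the INO80 complex needs to remodel nucleosomes. INO80 also positions the nucleosomes that flank NFRs and spaces nucleosome arrays. ARS305 and ARS315 are early and efficient (EE) origins, and ARS313 and ARS316 are late and inefficient (LI) origins. In MATAC-seq, purified rings are treated with EcoGII, which methylates adenines, and with M.CviPI and M.SssI, which methylate cytosines in GpC and CpG, so that accessible bases become methylated and nucleosomal bases stay protected. Nanopore reads then give the state of called bases in a single molecule, and the study called methylated adenines and CpG cytosines. Each ring position was called methylated on forward or on reverse reads, not on both, so that a read informs only on the positions of its strand. The authors deposited fractions that are 0 or 1 for the called bases of each molecule.

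Oligonucleotides of the study that fell within the rings were placed there by the strand on which each base was called, which tells A or C from G or T. Each of the 4 oligonucleotides below matched a single place in the 4 rings. They show, base by base, where the libraries of the mutants did and did not overlap. Each is printed 5′ to 3′. Except in the third, capitals mark bases at which both isw2Δ libraries exceeded both ies6Δ libraries after scaling to the ring mean. In the third, capitals mark bases at which both isw2Δ libraries lay below both ies6Δ libraries after the same scaling. All lie on chromosome III.
ARS305, ring positions 666 to 686, reverse strand: tTTTTAgccccCgTgTAAgTT
ARS315, ring positions 1170 to 1189, reverse strand: gGTTGgggtAtTAAgAgTAc
ARS315, 23 bases from ring position 444, forward strand: TgTGTGTTTgtatactCtgtggG
ARS316, ring positions 685 to 707, reverse strand: GttcttcgttgcctacatTttct
The first lies on the + side of the ARS305 NFR, and 12 of its 21 bases were higher in isw2Δ and 0 lower, which is to be read against 20.2% higher and 16.8% lower among all 4597 ring positions. The second lies in the right flank of the promoter next to ARS315, with 11 of 20 bases higher and 1 lower. The third lies just outside the minus side of the ARS315 NFR, with 10 of 23 bases lower and 1 higher. The last lies in the ARS316 NFR, with 2 of 23 bases higher and 3 lower. In the first, A and T bases were methylated in 24.4 and 23.3% of molecules in isw2Δ, against 15.9 and 11.96% in ies6Δ. Its G and C bases were methylated in 0.769 and 1.74% in isw2Δ, against 0.798 and 0.926% in ies6Δ. Of the 12 higher bases, 11 were thus A or T, the bases that EcoGII reads on either strand.

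Each mutant library held 1560 molecules per origin, and ARS316 in ies6Δ was the exception with 176 and 575 molecules in its 2 libraries. Averaged over the whole ARS305 ring, 18.1 and 18.2% of bases were methylated in isw2Δ, against 14.8 and 13.03% in ies6Δ. The ARS315 ring had 19.2 and 19.2% methylated in isw2Δ, against 15.4 and 13.7% in ies6Δ. For ARS313 the values were 16.1 and 15.96% in isw2Δ, against 13.7 and 11.3% in ies6Δ. For ARS316 they were 17.8 and 17.7% in isw2Δ, against 14.5 and 13.2% in ies6Δ. Both isw2Δ libraries were therefore above both ies6Δ libraries at each origin. Methylation of the in vitro nucleosomal array, added to every library, was also higher in isw2Δ, at 12.3 and 11.8%, than in ies6Δ, at 10.2 and 9.03%. The naked plasmid was methylated to 33.6 and 34.9% in isw2Δ and to 33.2 and 33.01% in ies6Δ. How far methylation efficiency accounts for the ring levels was not tested. To take the overall level out, each window of 30 positions was divided by the mean of its whole ring in the same library (ring-scaled level), and the level divided by the nucleosomal array is given beside it (array-scaled level). Ring-scaled levels average 1 over a ring, so that a stretch above in a mutant goes with others below.

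Windows in which the shape of the profiles differed between isw2Δ and ies6Δ past the threshold lay at the 2 EE origins, among them the + side of the ARS305 NFR and both flanks of the promoter next to ARS315. Of 152 windows over the 4 rings, 8 passed an adjusted p of 0.05 (5.26%), 5 with a higher ring-scaled level in isw2Δ (3.29%) and 3 with a lower one (1.97%), by limma with Benjamini-Hochberg adjustment over all windows. There were 5 such windows at ARS315, 3 at ARS305, 0 at ARS313 and 0 at ARS316, where 3 windows each had an unadjusted p under 0.05 by the same fit. Whether the EE and LI origins differ in this respect was not tested. Array-scaled levels passed in the same 8 windows, in the same directions, by a fit whose SE was pooled wholly over windows. With the overall level higher in isw2Δ, fractions without scaling gave 10 windows higher and 0 lower, and those divided by the naked plasmid 7 and 0, with the median of all windows at log2 differences of 0.41 and 0.36. Division by the median of the ring's windows gave 4 higher and 5 lower, and molecules with 10 to 20% of the ring methylated gave 4 and 8. Without ies6Δ replicate 1 or without ies6Δ replicate 2, none of the 152 windows passed (29 and 16 at an unadjusted p under 0.05), and without isw2Δ replicate 2 there were 5. With at most 80 molecules per strand 1 window passed, window 30 of ARS315.

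**Figure D1:**
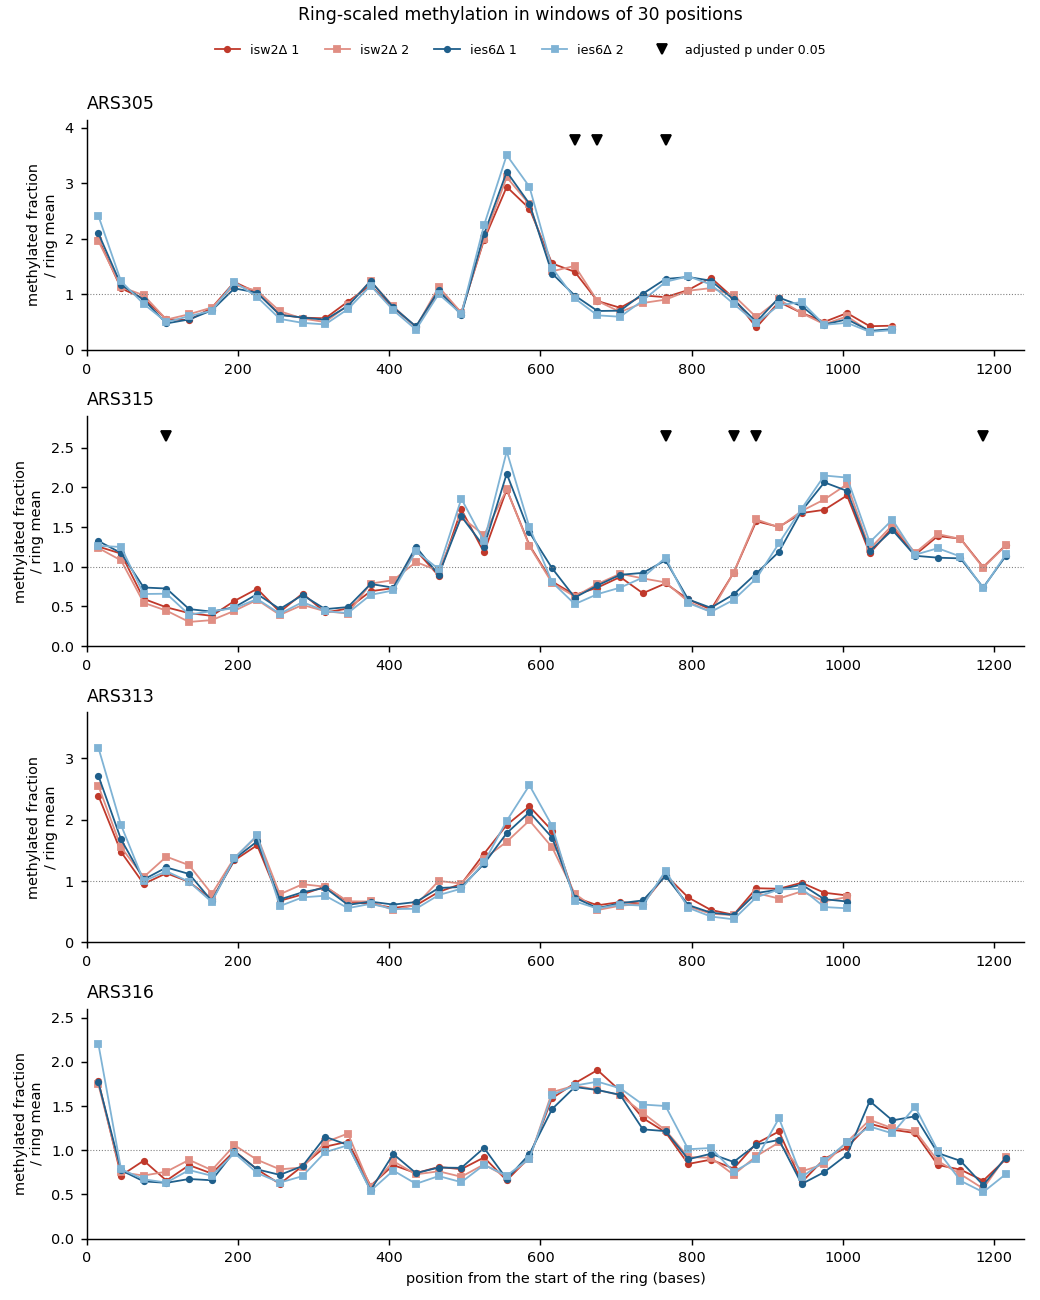
Ring-scaled methylation (methylated fraction divided by the ring mean, vertical axes) against the position from the start of the ring in bases, with a point per window of 30 positions for each of the 2 isw2Δ (red) and 2 ies6Δ (blue) libraries at the 4 origins. Triangles mark the 8 windows past an adjusted p of 0.05, which lie at ARS305 and ARS315.

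The profiles of the 2 mutants were otherwise much alike. Across windows, Pearson's r between an isw2Δ and an ies6Δ library was lowest for ARS315 (0.927 to 0.929) and lay between 0.932 and 0.982 for the other 3 rings. Between replicates it was 0.955 to 0.981 in isw2Δ and 0.924 to 0.993 in ies6Δ over the 4 origins. These are correlations over 34 to 41 windows that share their base composition. The root mean square log2 distance at ARS315 was 0.25 to 0.29 between the mutants, against 0.16 between the isw2Δ libraries and 0.15 between the ies6Δ libraries. At ARS305 it was 0.19 to 0.26 between the mutants, against 0.16 and 0.14 within them. At ARS313 (0.12 to 0.23 between, 0.18 and 0.16 within) and ARS316 (0.15 to 0.19 between, 0.13 and 0.20 within) the ranges overlapped.

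The largest difference lay at the left flank of the promoter next to ARS315, on the side that faces the origin. This is the promoter of TVS1 (YCR061W), whose coding sequence spans 225563 to 227458 of chromosome III in the R64 build. In window 30 (ring positions 871 to 900), 30.2 and 30.6% of bases were methylated in isw2Δ replicates 1 and 2, against 14.1 and 11.7% in ies6Δ. The ring-scaled levels were 1.57 and 1.60 in isw2Δ and 0.916 and 0.851 in ies6Δ, so that the groups were well apart and the isw2Δ libraries nearly coincided. The log2 difference was 0.84 ± 0.10 (SE, n = 2 libraries each, limma, adjusted p = 0.000339). Array-scaled levels were 2.46 and 2.58 in isw2Δ and 1.38 and 1.29 in ies6Δ. Both strands carried the difference, at 0.76 on forward and 0.96 on reverse reads. Of the 30 positions of the window, 23 were higher in both isw2Δ libraries and 0 lower. The position with the largest ring-scaled difference in this window was 879, called on reverse reads. There, 58.0 and 60.9% of isw2Δ molecules were methylated, against 21.8 and 18.9% of ies6Δ molecules.

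The neighboring window 29 (841 to 870) had ring-scaled levels of 0.923 and 0.925 in isw2Δ, against 0.652 and 0.583 in ies6Δ. The log2 difference was 0.58 ± 0.10 (SE, adjusted p = 0.00545 by limma), with 19 of 30 positions higher in isw2Δ and 0 lower. Window 31 (901 to 930) had 1.502 and 1.496 in isw2Δ and 1.188 and 1.297 in ies6Δ and did not pass (adjusted p = 0.193). Window 28 (811 to 840), just before, had nearly equal levels of 0.461 and 0.430 in isw2Δ and 0.483 and 0.431 in ies6Δ. Windows 29 and 30 together cover 60 positions, at 42 of which both isw2Δ libraries were higher and at 0 lower. The wildtype library had 0.631 in window 29, close to the ies6Δ libraries, and 1.34 in window 30, between the mutants and nearer to isw2Δ. As a single library, it has no replicate check.

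The center of the promoter did not share this difference. Over ring positions 931 to 1110, ring-scaled levels were 1.52 and 1.59 in isw2Δ and 1.59 and 1.68 in ies6Δ, a log2 difference of -0.07 ± 0.06 (SE). On the far side, window 40 (1171 to 1200) was again higher in isw2Δ, with 0.9954 and 0.9864 against 0.738 and 0.728 in ies6Δ. Here the log2 difference was 0.43 ± 0.10 (SE, adjusted p = 0.0215 by limma), and 20 of 30 positions were higher in isw2Δ and 1 lower. The right flank as a whole (1111 to 1230) had levels of 1.25 and 1.25 in isw2Δ, against 1.02 and 1.06 in ies6Δ. The ARS315 oligonucleotide at 1170 to 1189, shown above, covers most of window 40. At its A and T bases, 31.6 and 29.8% of isw2Δ molecules were methylated, against 18.7 and 16.5% of ies6Δ molecules.

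**Figure D2:**
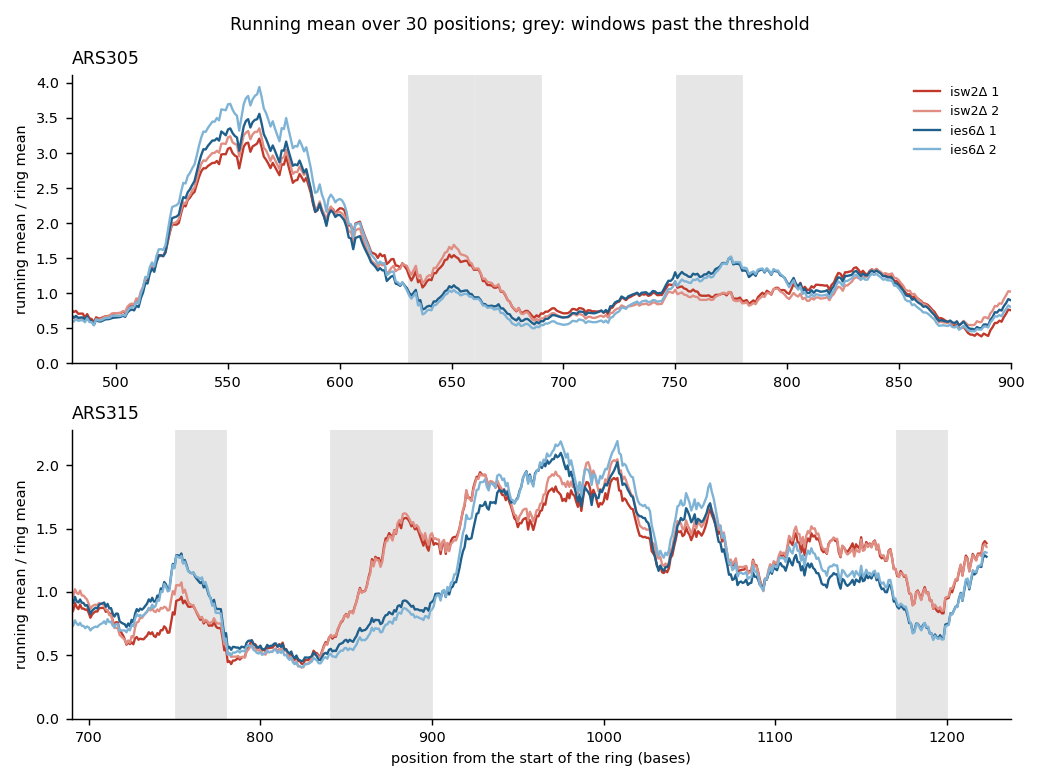
Running mean over 30 positions of the methylated fraction, divided by the ring mean (vertical axes), against the position from the start of the ring in bases, for ARS305 from 480 to 900 and ARS315 from 690 on, with 2 isw2Δ (red) and 2 ies6Δ (blue) libraries. Grey bands are windows past an adjusted p of 0.05, in which the red lines run above the blue lines, except for the bands at 751 to 780 of both rings, in which they run below.

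Lower ring-scaled levels in isw2Δ at ARS315 were seen in windows 26 and 4. Window 26 (751 to 780) lies in the linker on the + side of the origin. It had 0.790 and 0.803 in isw2Δ and 1.081 and 1.115 in ies6Δ, and the log2 difference was -0.46 ± 0.10 (SE, adjusted p = 0.0162 by limma). Of its positions, 21 of 30 were lower in isw2Δ and 1 was higher. The wildtype library, at 0.809, was close to isw2Δ. Window 4 (91 to 120), in a protected stretch on the minus side, had 0.489 and 0.447 in isw2Δ, against 0.725 and 0.660 in ies6Δ. The log2 difference was -0.57 ± 0.11 (SE, adjusted p = 0.00628 by limma), with 19 of 30 positions lower and 0 higher, and wildtype was at 0.512. In unscaled percentages the mutants overlapped in both windows. Window 26 had 15.2 and 15.4% methylated in isw2Δ and 16.6 and 15.3% in ies6Δ. Window 4 had 9.37 and 8.56% in isw2Δ and 11.2 and 9.04% in ies6Δ. Without scaling the log2 differences were -0.06 and -0.17, and neither window passed.

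**Figure D3:**
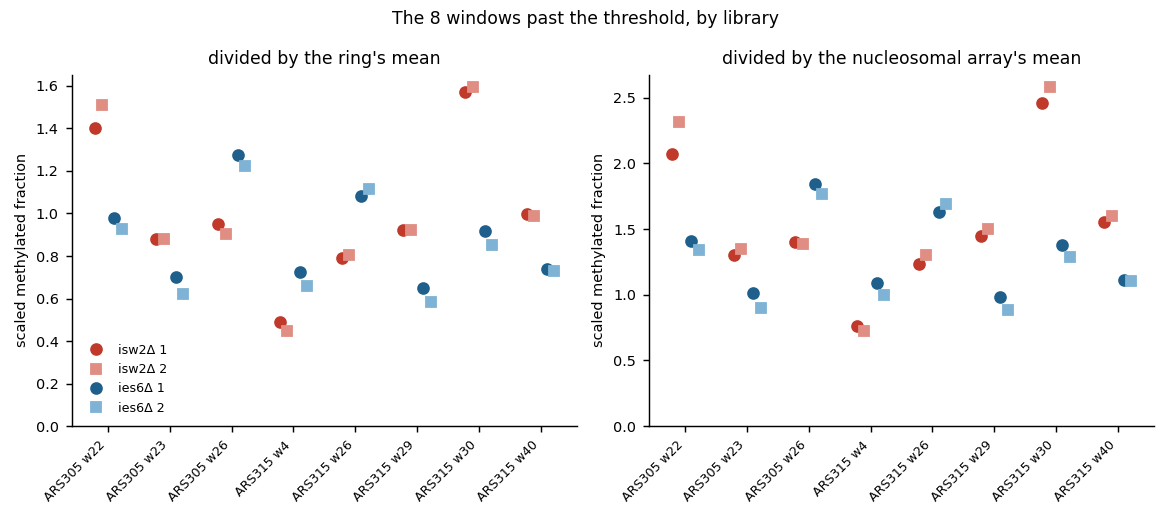
Scaled methylated fraction (vertical axes) of each library in the 8 windows past an adjusted p of 0.05 (horizontal axes, w for window), divided by the ring mean (left) and by the mean of the nucleosomal array (right), with isw2Δ in red left of ies6Δ in blue. In each window and on both scales, the 2 isw2Δ libraries do not overlap the 2 ies6Δ libraries.

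At ARS305, the difference was on the + side of the NFR, where the NFR gives way to protected DNA. In window 22 (631 to 660), 25.4 and 27.4% of bases were methylated in isw2Δ, against 14.4 and 12.1% in ies6Δ. The ring-scaled levels were 1.40 and 1.51 in isw2Δ and 0.978 and 0.926 in ies6Δ, a log2 difference of 0.61 ± 0.10 (SE, adjusted p = 0.00449 by limma). Array-scaled levels were 2.08 and 2.32 in isw2Δ and 1.41 and 1.34 in ies6Δ. In this window 23 of 30 positions were higher in isw2Δ and 0 lower. The position with the largest ring-scaled difference in this window was 648, called on reverse reads. There, 58.6 and 46.3% of isw2Δ molecules and 27.2 and 23.97% of ies6Δ molecules were methylated. Window 23 (661 to 690) followed with 0.879 and 0.880 in isw2Δ, against 0.7002 and 0.621 in ies6Δ (log2 difference 0.42 ± 0.10, SE, adjusted p = 0.0351 by limma). The first oligonucleotide above, a qPCR primer for ARS305, lies within it. The wildtype library had 0.855 and 0.686 in these 2 windows, close to ies6Δ.

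The ring-scaled level of the NFR itself was not higher in isw2Δ. Over positions 511 to 600, ring-scaled levels were 2.48 and 2.58 in isw2Δ and 2.64 and 2.90 in ies6Δ, a log2 difference of -0.13 ± 0.07 (SE). Window 21 (601 to 630), between the NFR and window 22, had 1.55 and 1.41 in isw2Δ and 1.37 and 1.48 in ies6Δ, which overlap. Further along, window 26 (751 to 780) was lower in isw2Δ, with 0.948 and 0.904 against 1.28 and 1.23 in ies6Δ. The log2 difference was -0.43 ± 0.10 (SE, adjusted p = 0.0215 by limma), with 13 of 30 positions lower in isw2Δ and 1 higher. Window 27 next to it had 1.077 and 1.064 in isw2Δ and 1.31 and 1.32 in ies6Δ but did not pass (adjusted p = 0.158). Wildtype was at 0.905 in window 26, close to isw2Δ. Unscaled, window 26 had 17.2 and 16.4% methylated in isw2Δ and 18.8 and 15.95% in ies6Δ, which overlap. The same stretch of ARS305 is present as naked DNA in the spike-in plasmid. When each of 23 windows (positions 211 to 900) was divided by its naked counterpart in the same library, 4 passed with adjustment over these 23 windows. Among them were windows 22, 23 and 26, with log2 differences of 0.61, 0.40 and -0.43. The ring reads are the same ones and 0 windows of the naked plasmid passed, so that this gives no separate support.

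At the LI origins no window passed, and the largest differences of either direction are given as values. At ARS313, window 34 (991 to 1020) had ring-scaled levels of 0.765 and 0.738 in isw2Δ and 0.666 and 0.555 in ies6Δ (log2 difference 0.31 ± 0.11, SE, adjusted p = 0.193). Window 1 had 2.39 and 2.56 in isw2Δ and 2.72 and 3.18 in ies6Δ (-0.25 ± 0.11, adjusted p = 0.288), in a ring start that was highly methylated in all libraries. At ARS316, window 3 (61 to 90) had 0.882 and 0.713 in isw2Δ and 0.647 and 0.670 in ies6Δ (0.27 ± 0.12, adjusted p = 0.284). Window 37 (1081 to 1110) had 1.19 and 1.22 in isw2Δ and 1.38 and 1.49 in ies6Δ (-0.25 ± 0.10, adjusted p = 0.25 by limma). Without scaling, the log2 differences of window 1 of ARS313 and window 37 of ARS316 had the opposite sign (0.12 and 0.11). The 2 libraries of each mutant did not overlap those of the other in any of these 4 windows, but this held for 59 of all 152 windows (38.8%), 33 with isw2Δ higher (21.7%) and 26 with isw2Δ lower (17.1%). On array-scaled levels 67 windows did not overlap (44.1%), 52 with isw2Δ higher (34.2%) and 15 with isw2Δ lower (9.87%). At the NFRs of both LI origins, ring-scaled levels overlapped between the mutants. The ARS313 NFR (541 to 630) had 1.98 and 1.73 in isw2Δ and 1.87 and 2.15 in ies6Δ, and the ARS316 NFR (601 to 720) had 1.73 and 1.67 in isw2Δ, against 1.62 and 1.71 in ies6Δ. The log2 differences were -0.12 ± 0.09 and 0.03 ± 0.06 (SE), the first close to the -0.13 of the ARS305 NFR. With 176 and 575 ies6Δ molecules, ARS316 was the least precise.

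Ring-scaled levels were also taken over 31 regions (NFRs, linkers, flanks and the annotated ARS). The regions were chosen with the profiles known and share positions with the windows, so that their differences are a description and no further support. The highest log2 difference was that of the left flank of the ARS315 promoter, at 0.55 ± 0.06 (SE). The + side of the ARS305 NFR followed at 0.31 ± 0.06 and the right flank of the promoter at 0.27 ± 0.06. The lowest were the + side linker of ARS315 at -0.26 ± 0.06, the ring start of ARS313 at -0.25 ± 0.08 and the far flank of ARS316 at -0.23 ± 0.06. This far flank (1081 to 1140) had 1.01 and 1.05 in isw2Δ and 1.176 and 1.243 in ies6Δ. Without scaling, all 3 had the opposite sign (0.14 for the linker, 0.12 for the ring start and 0.13 for the far flank), as had 21 of the 31 regions in all. The libraries of the 2 mutants did not overlap in 18 regions (58.1%), with isw2Δ higher in 5 (16.1%) and lower in 13 (41.9%). Among the 4 NFRs, the ring-scaled level was lower in isw2Δ without overlap at ARS305 and ARS315, and overlapped at ARS313 and ARS316. At ARS315 it was 1.54 and 1.57 in isw2Δ, against 1.62 and 1.78 in ies6Δ. Array-scaled levels of both NFRs overlapped between the mutants, with log2 differences of -0.07 at ARS305 and -0.06 at ARS315. Without scaling both NFRs were higher in isw2Δ, with log2 differences of 0.26 at ARS305 and 0.27 at ARS315. In unscaled percentages, the ARS305 NFR had 45.03 and 46.76% methylated in isw2Δ, against 38.93 and 37.72% in ies6Δ. In molecules with 10 to 20% of the ring methylated, the log2 difference was 0.03 for the ARS305 NFR and -0.07 for that of ARS315. The annotated ARS had a log2 difference of -0.09 ± 0.07 in the ARS305 ring and -0.07 ± 0.06 in the ARS315 ring, and of -0.06 ± 0.08 for ARS313 and -0.00084 ± 0.06 for ARS316 (SE).

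**Figure D4:**
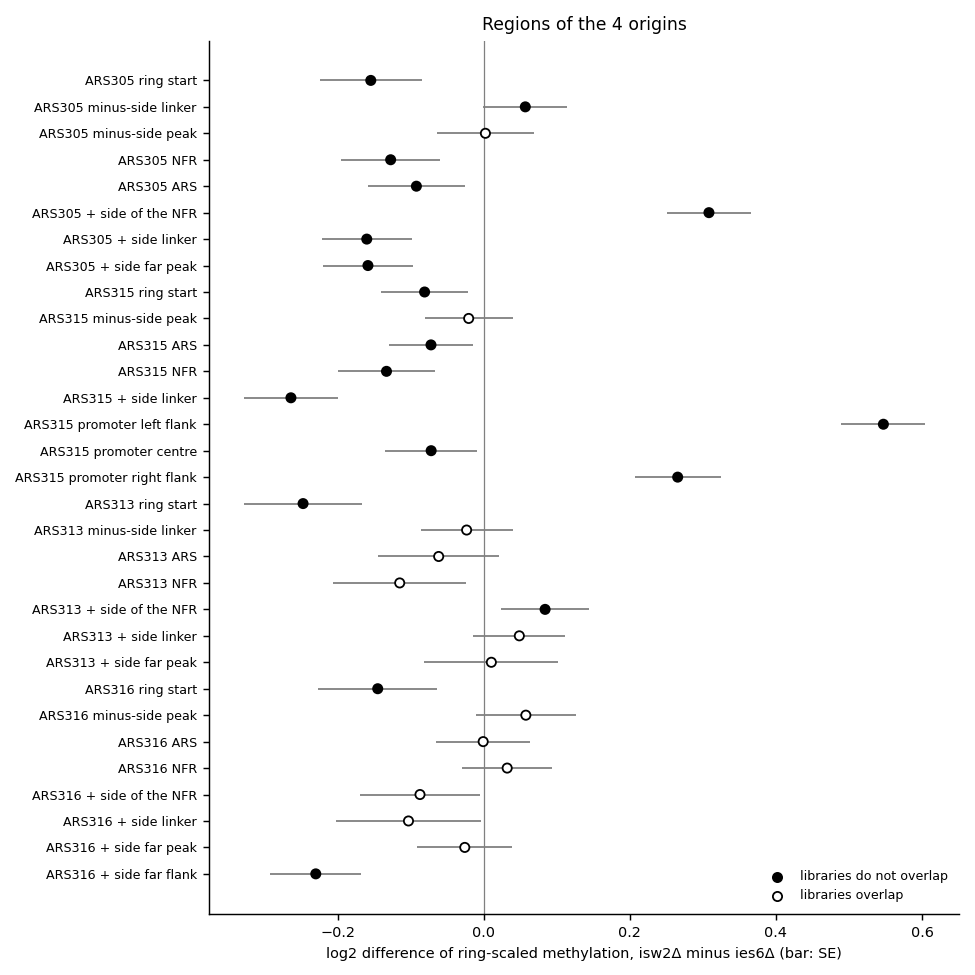
Log2 difference of the ring-scaled level, isw2Δ minus ies6Δ (horizontal axis, bars SE, n = 2 libraries each), for the 31 regions of the 4 origins. Filled points are the 18 regions in which the libraries of the mutants do not overlap, 5 to the right of 0 with the left flank of the ARS315 promoter farthest, and 13 to the left.

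Positions of borders and linkers, which do not use the level, were set side by side. With 2 libraries against 2, an exact permutation test cannot give a p below 0.333, so that these are values. The border of the ARS315 promoter that faces the origin, taken at mid-height of the running mean, lay at 865 and 871 in isw2Δ and at 918 and 917 in ies6Δ (wildtype 934). This is 49.5 positions closer to the origin in isw2Δ. On a single strand the gap was smaller, but forward reads placed the border inside the center of the promoter, so that it is not the same flank. Forward reads placed the border at 994 in both isw2Δ libraries and 4 to 6 positions further in ies6Δ, and reverse reads at 920.0 and 924 in isw2Δ against 927 and 925 in ies6Δ. The other border of the promoter overlapped, at 1031 and 1033 in isw2Δ, against 1029 and 1031 in ies6Δ, within the center of the promoter. By other settings the mutants did not overlap there. Forward reads gave 1094 in both isw2Δ libraries and 1075 in both ies6Δ libraries. Reverse reads gave 1020 and 1020 in isw2Δ, against 1018 and 1019 in ies6Δ. A running mean of 50 positions gave 1169 and 1081 in isw2Δ, against 1079 and 1080 in ies6Δ. The + side border of the ARS305 NFR lay at 611 and 605 in isw2Δ and at 593 and 603 in ies6Δ. On either strand alone the mid-height rule found a different peak. It ended at 565 in both mutants on forward reads and ran from 607 to 631 on reverse reads. The single strands are therefore no check of this border. The highest point of the ARS305 + side linker lay at 831 and 840.0 in isw2Δ and at 775 and 775 in ies6Δ (wildtype 840.0). On a single strand it differed by at most 1 position, but the strands placed it apart. Forward reads gave 779 in isw2Δ and 778 in ies6Δ, and reverse reads gave 823 in both mutants. At ARS315 this point was at 754 in all 4 libraries. Of 18 such positions over the 4 origins, the mutants did not overlap in 8 (44.4%), and the means of these differed by between 1 and 60.5 positions. At ARS313 the minus-side border of the NFR was at 535 and 526 in isw2Δ and 544 and 545 in ies6Δ.

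Single molecules gave the same order at the promoter flanks. A molecule was called open in a region when at least 25% of the bases called there were methylated. In all molecules, isw2Δ was above ies6Δ without overlap in 30 of 31 regions (96.8%), as was the overall level. Among molecules with 10 to 20% of their ring methylated, a band that narrows this level, isw2Δ was higher in 12 regions (38.7%) and lower in 6 (19.4%). Whether the mutants still differed in level within this band was not tested. In these molecules the left flank of the ARS315 promoter was open in 39.1 and 38.8% in isw2Δ, against 16.5 and 16.8% in ies6Δ, the widest gap of the 31 regions. The right flank was open in 41.3 and 40.9% in isw2Δ, against 25.6 and 24.8% in ies6Δ. The + side of the ARS305 NFR was open in 62.4 and 62.0% in isw2Δ and 47.5 and 47.7% in ies6Δ. In the other direction, the ARS305 + side linker was open in 18.7 and 14.7% in isw2Δ and 26.1 and 21.3% in ies6Δ, and the ARS315 + side linker in 7.36 and 9.10% in isw2Δ and 12.7 and 12.8% in ies6Δ. In both linkers the 2 libraries of each mutant stayed apart.

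The share of open molecules did not always follow the ring-scaled level. The ARS316 NFR, whose ring-scaled levels overlapped, was open in 58.7 and 58.6% of the matched molecules in isw2Δ and in 46.3 and 46.5% in ies6Δ, but the ies6Δ values rest on 70 and 252 molecules, with 95% Wilson intervals of 34.6 to 57.3% and 40.4 to 52.6%. In some regions with a lower ring-scaled level in isw2Δ over all molecules, open molecules of this band were more frequent in isw2Δ. The center of the ARS315 promoter was open in 59.1 and 60.3% in isw2Δ, against 48.7 and 48.3% in ies6Δ. The ARS305 NFR was open in 89.6 and 91.9% in isw2Δ, against 87.6 and 86.9% in ies6Δ. Within the molecules of this band, the ring-scaled level of the ARS305 NFR was not lower in isw2Δ, as given above. The ARS315 NFR overlapped, with 53.0 and 58.5% in isw2Δ and 53.7 and 59.3% in ies6Δ, as did the ARS313 NFR with 67.2 and 54.2% in isw2Δ and 58.9 and 61.0% in ies6Δ. At the 3 origins other than ARS316 the Wilson intervals of the matched shares reached at most 3.71 percentage points to either side. These intervals cover counting error only, and an exact permutation test over libraries cannot go below 0.333 here either.

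**Figure D5:**
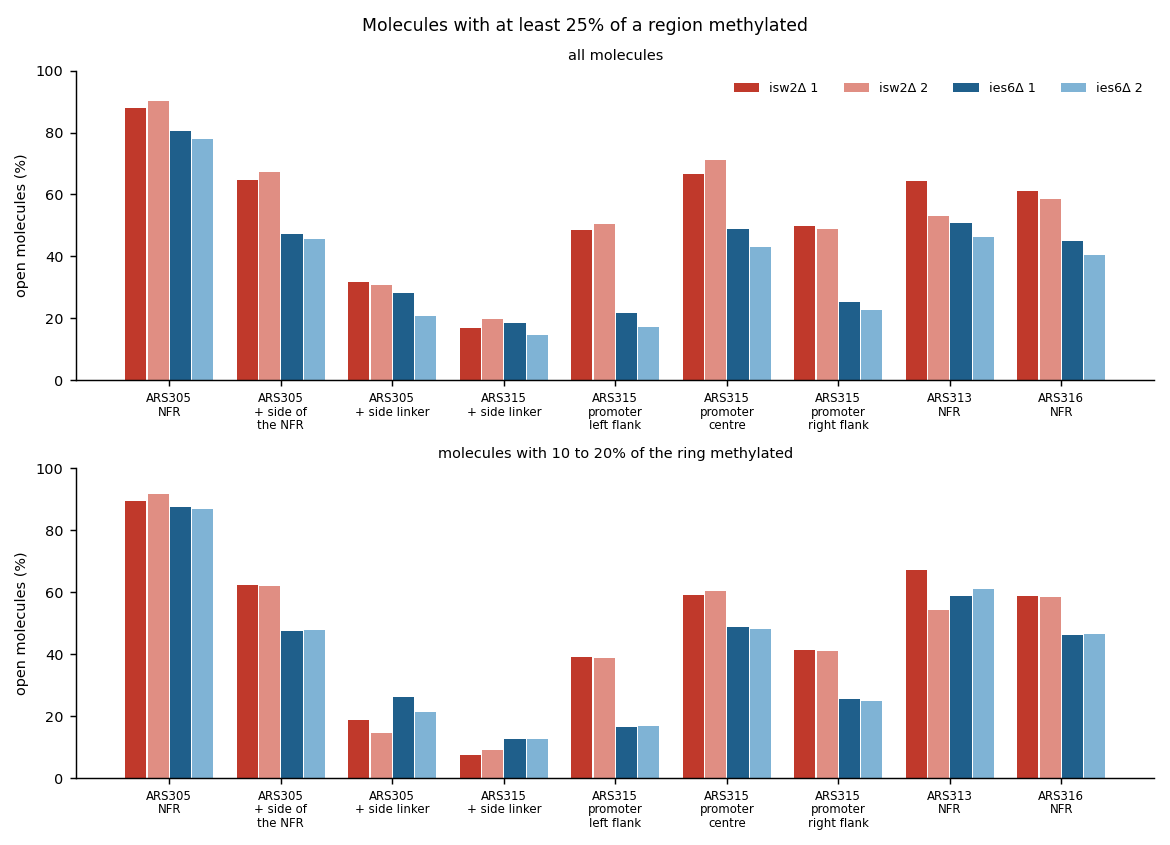
Share of molecules with at least 25% of a region's called bases methylated (vertical axes, %) in 9 regions, for all molecules (top) and for molecules with 10 to 20% of the ring methylated (bottom), with a bar per library, isw2Δ (red) left of ies6Δ (blue). In the lower panel the red bars stand well above the blue bars at both flanks of the ARS315 promoter and below them at both + side linkers.

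The spike-ins gave the background of methylation and base calling alone. They were added to the purified rings, so that they hold no differences between strains, cultures or purifications. Of 159 windows of the naked plasmid, 0 passed when scaled to the plasmid's own mean (0.00%), with 1 at an unadjusted p under 0.05 by limma. Of 65 windows of the nucleosomal array 0 passed (0.00%), with 0 at an unadjusted p under 0.05. The largest absolute log2 difference was 0.19 in the plasmid and 0.26 in the array, against 0.84 in the origins. Without 1 library, the largest was 0.10 to 0.30 in the plasmid and 0.20 to 0.48 in the array, against 0.79 to 0.90 in the origins, and 0 spike-in windows passed. Without isw2Δ replicate 2, 27 plasmid windows had an unadjusted p under 0.05, and without ies6Δ replicate 1, 12 array windows had one. With at most 80 molecules per strand the largest was 0.21 in the plasmid and 0.61 in the array, against 0.80 in the origins.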

How the data were processed

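Rings were purified from G1-arrested cells, methylated and read on Nanopore by the study, which called bases and modifications with Guppy and Megalodon. The authors deposited a fraction of 0 or 1 for each called base of each read, by origin and strand, without normalization. The calling thresholds could not be varied here. An incomplete line (1 in all, wildtype) was left out. The fraction of methylated calls was averaged per position over the reads of its strand and then over windows of 30 positions, divided by the mean of the ring (or of the nucleosomal array) and tested on the log2 scale with limma 3.58.1 in R 4.3.3, 2 libraries against 2 (2 residual degrees of freedom). Variances were moderated over all windows (eBayes), so that SEs and p-values rest in part on a spread pooled over windows. In the array-scaled fit all windows had the same SE of 0.1206, so that its p-values rest on the pooled spread alone. P-values were adjusted by Benjamini-Hochberg over 152 windows at a threshold of 0.05. The fit was tested on simulated windows with independent noise of a common spread (SD 0.115), which is simpler than the data. It found 19.5% of windows changed by a log2 of 0.25 and 96.2% of those changed by 0.5, so that changes of about 0.25 were mostly missed. The windows named are, per origin, up to 3 in each direction past the threshold without overlap between the mutants and, where an origin had none, its highest and lowest difference. Members, regions and lists were chosen with earlier results of these data known. Open shares used the molecules of strands with at least 3 called positions in a region, with 95% Wilson intervals. Alternatives were other scalings, window sizes, strands, read numbers, sites, molecules and fits, and leaving out each library. Gene coordinates are from RefSeq, build R64, and oligonucleotides from the study's primer list.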

Additional observations from a re-analysis of the deposited data

How the results depend on the processing

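The count of 8 of 152 windows past the threshold was 1 with at most 80 reads per strand, 15 of 228 in windows of 20 positions and 5 of 89 in windows of 50. With the replicate number as a block it was 0 (25 at an unadjusted p under 0.05, limma, 1 residual degree of freedom), and the 8 windows had adjusted p of 0.0608 to 0.144. Same-numbered libraries deviated together with a correlation of 0.12 over all windows, and the labels give them only a shared number. Leaving out one library gave 0 to 7 windows and 1 region. In a fit over the 31 regions, which were chosen with the profiles known and give no independent support, 5 passed (3 higher, 2 lower). With the block 5 passed, 4 of them shared, with the ARS313 ring start in place of the ARS316 far flank. The count was 3 on array-scaled levels, 3 on forward reads, 3 with sites of at least 5% methylation, 1 with division by the ring median, 21 with division by the naked plasmid and 27 without scaling. Higher and lower windows split 5 to 3, against 4 to 5 with the ring median, 4 to 8 in molecules of 10 to 20%, 7 to 0 with the naked plasmid and 10 to 0 without scaling. Positions that did not overlap numbered 5 on reverse reads, against 8. Among the 12 windows named, log2 differences changed sign for window 1 of ARS313 (0.0666 by the naked plasmid, 0.12 without scaling), window 37 of ARS316 (0.0591 and 0.11). By either of these settings 21 of the 31 regions changed sign, among them the ARS315 + side linker (0.0878 and 0.14) and the ARS316 far flank (0.0808 and 0.13). In molecules of 10 to 20% this held for 9 regions and on array-scaled levels for 6. The cause was not tested, though the median of all windows lay at 0.36 and 0.41 by the naked plasmid and without scaling. The 8 windows kept their direction in all of 139 recomputed values, and in 90 of these their side of the threshold. Without ARS316, an alternative chosen after seeing the data, 8 of 111 windows passed. Adenines and cytosines were not fitted apart, since no genome sequence was used here. Depth limits ARS316 most, where ies6Δ had 176 and 575 reads.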
